A study of Mus musculus with 4 samples.

Results

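The suppressive effector genes of myeloid-derived suppressor cells were taken as 10 genes chosen by symbol: Arg1, Arg2, Nos2, Il10, Tgfb1, Cd274, Slc27a2, Lgals3, Lgals9 and Vsir. All 10 were found among the 54532 Ensembl genes of each deposited table. The cells were polymorphonuclear myeloid-derived suppressor cells (PMN-MDSC), purified from the spleen of newborn mice of the strain C57BL/6. One group received NECA, a long-lived relative of adenosine and agonist of its receptors, and the other the solvent DMSO, for 5 days, and RNA of 300000 cells of each condition was sequenced. Each group had 2 libraries, with no genetic change in either, and the dose of NECA is not given in the labels. Whether replicates stem from separate animals or cultures is not stated, so the p-values measure only the spread between these libraries, which may be technical.

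PMN-MDSC are neutrophil-like cells that restrain T cells. They are known to do so by breaking down arginine, by making nitric oxide and other oxidants, by secreting the cytokines interleukin 10 and TGF-beta, and by showing T cells inhibitory surface ligands and galectins. Receptors for adenosine act on cyclic AMP, whose transcription factor CREB binds a DNA site called the cyclic AMP response element (CRE). The comparison asks whether the transcripts of these effectors differ after the adenosine receptor agonist, in a series whose title links adenosine to the suppressive function of these cells.

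Transcripts of 6 of the 10 genes were present in number and those of the other 4 were almost absent. Vsir, Lgals3, Lgals9, Tgfb1, Arg2 and Cd274 had at least 10 counts in every library. Arg1, Nos2, Il10 and Slc27a2 had 12, 5, 1 and 18 counts over all 4 libraries together, too few to test, and 8 of the 10 had at least 1 count in every library. After NECA, 0 of the 6 tested genes were higher and 0 were lower at an adjusted p under 0.05 (edgeR's quasi-likelihood test, Benjamini-Hochberg over all 13083 genes tested), where 1.33% of all genes tested were called, 0.352% as higher and 0.978% as lower. At an unadjusted p under 0.05 there were 3 of the 6, Vsir, Lgals3 and Cd274, against 15.7% of all genes. The median log2 fold change of the 6 was 0.07, against -0.01 for all genes tested. Vsir and Lgals3 passed as higher with DESeq2 (adjusted p = 0.0134 and 0.0201, where 0.671% of 22344 genes were called higher). They also passed with edgeR and no filter on low counts (adjusted p = 0.00569 and 0.0206, where 1.28% of 22344 were). That fit took p from a normal distribution and the main fit from a t distribution, which gives larger p-values. Its log2 fold changes were no larger than those of the main fit, so these passes are not separate support. These 22344 include genes of low count, to some of which, Arg1 among them, DESeq2 gave no adjusted p. The share called higher by DESeq2 among genes with an adjusted p was thus above 0.671%. None of the 6 passed with limma on log2 FPKM, where 0.00764% of all genes were called.

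Per length, on the deposited FPKM scale (fragments relative to gene length and library depth), the order of the levels was Vsir, Lgals3, Lgals9, Tgfb1, Arg2, Cd274, Arg1, Slc27a2, Nos2 and Il10 by the mean of the 4 libraries. Vsir lay between 255 and 297 FPKM and Lgals3 between 238 and 276 FPKM, so that their ranges overlapped. Lgals9 (62.5 to 67.6 FPKM) lay apart from both its neighbours. Tgfb1 (22.8 to 27.6 FPKM) and Arg2 (17.7 to 24.5 FPKM) overlapped, and Cd274 (0.608 to 1.55 FPKM) lay below Arg2 and above Arg1 in every library. The last 4 genes reached at most 0.139 FPKM, and each overlapped its neighbour in that order. Arg1, at 0.0582 FPKM or more, lay above Nos2 (at most 0.0294 FPKM) and Il10 (at most 0.0398 FPKM) in all libraries. Vsir ranked between 112 and 122 and Lgals3 between 123 and 134 among all genes of a library by FPKM, while Cd274 ranked between 9066 and 11110. The 10 genes held 0.209% and 0.209% of all counts with DMSO and 0.223% and 0.216% with NECA. Vsir alone made up 63.3% and 63.5% of their summed CPM (counts scaled to a common library size after TMM) with DMSO and 64.8% and 63.7% with NECA.

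**Figure D1:**
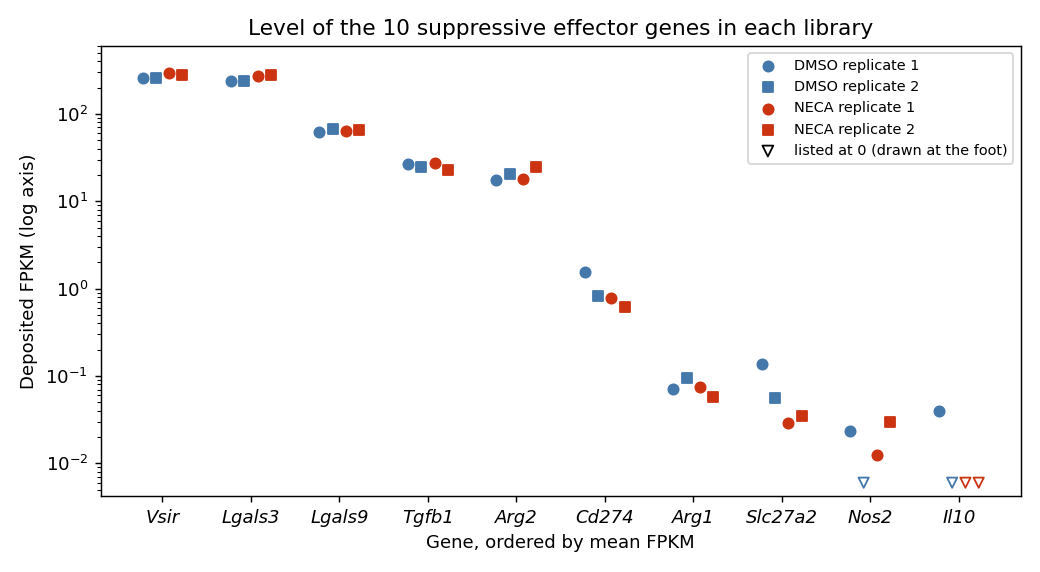
Deposited FPKM (log axis) of the 10 effector genes in each of the 4 libraries, with DMSO in blue and NECA in red and values listed at 0 as open triangles at the foot. Vsir and Lgals3 sit above 200 FPKM in every library, and Arg1, Slc27a2, Nos2 and Il10 do not exceed 0.139 FPKM.

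The library labels could be set against cell type markers. Of 15 neutrophil markers all were tested. Their summed level, led by Ngp and Ltf, was 123809 and 129422 CPM under DMSO against 137777 and 138665 CPM under NECA. Of the 15, 2 were called higher and 0 lower, beside 0.352% and 0.978% of all genes tested. Their median log2 fold change was 0.14, with 13 above 0 and 2 below 0 (range -1.19 to 0.37). Ly6g, the surface protein that defines the neutrophil-like subset, lay between 371 and 423 CPM. Markers of other cells were present in all 4 libraries, with none of the listed genes at 0 counts over all libraries. The summed level of each such list was lower in both NECA libraries than in both DMSO libraries, while single genes were called lower for 16 of 22 monocyte and macrophage, 1 of 12 B cell and 1 of 12 basophil, mast cell and eosinophil markers and for 0 of the T and NK cell, dendritic cell and erythroid markers, and 0 of any were called higher. Summed levels of 22 monocyte and macrophage markers, led by Ly6c2 and Csf1r, were 1418 and 1324 CPM under DMSO against 1002 and 901 CPM under NECA. The median log2 fold change of the 22 was -1.49, and the only one above 0 was Ly6c2, the most abundant of them (522 and 549 against 582 and 575 CPM, 0.11, edgeR adjusted p = 0.304). Summed levels of 12 B cell markers, led by Cd79a and Bank1, were 177 and 186 against 103 and 28.9 CPM, and those of 10 erythroid markers, led by Hbb-bs and Hba-a1, were 1231 and 531 against 375 and 59.0 CPM. T and NK cell markers (led by Cd3d and Tcf7) summed to 33.1 and 35.2 against 20.8 and 21.1 CPM. Dendritic cell markers (Itgax, Tcf4) summed to 28.4 and 25.3 against 24.7 and 18.4 CPM, and those of basophils, mast cells and eosinophils (Prss34, and Siglecf, which itself stood at 12.6 and 12.2 against 13.9 and 13.3 CPM) to 102 and 110 against 75.8 and 49.8 CPM. In bulk RNA, fewer cells of a type and less RNA per cell cannot be told apart. Total counts per library ran from 15864120 to 18712625, and limits given for a count of 0 cover counting error only.

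The sequences just before the start of the 2 inhibitory surface ligands, Vsir and Cd274, are shown because both are checkpoint ligands and their NECA libraries lay on opposite sides of the DMSO libraries, Vsir above and Cd274 below. Each is the 250 bases before the RefSeq start on the plus strand of GRCm38.p6, 5′ to 3′, and capitals would mark a CRE half-site (TGACG, on either strand), which includes those inside the full site TGACGTCA.
Vsir, chr10:60346601-60346850: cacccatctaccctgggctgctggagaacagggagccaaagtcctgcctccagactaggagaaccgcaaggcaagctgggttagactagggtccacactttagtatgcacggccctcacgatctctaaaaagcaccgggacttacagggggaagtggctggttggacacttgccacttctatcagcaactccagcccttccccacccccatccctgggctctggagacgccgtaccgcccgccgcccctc
Cd274, chr19:29367188-29367437: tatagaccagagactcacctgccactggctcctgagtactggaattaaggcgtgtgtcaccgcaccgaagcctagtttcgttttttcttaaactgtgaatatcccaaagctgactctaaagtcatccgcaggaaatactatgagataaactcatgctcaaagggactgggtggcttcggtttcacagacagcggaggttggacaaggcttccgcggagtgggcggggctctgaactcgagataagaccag
Neither holds the half-site, and neither do the windows of the same length of Tgfb1, Slc27a2, Lgals3 and Lgals9, the other members matched in the RefSeq table. Of 32851 promoter windows of this length, 17.8% held the half-site and 1.55% the full site. No match says only that these letters are not in these windows.

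Among the inhibitory surface ligands, Vsir encodes VISTA, an immunoglobulin-like protein of myeloid cells that restrains T cells. Its level was 1282 and 1303 CPM in DMSO replicates 1 and 2 and 1488 and 1413 CPM in NECA replicates 1 and 2. Both NECA libraries lay above both DMSO libraries, as was so for 2 of the 6 tested members and for 22.4% of all genes tested. The mean was 1292 ± 14.9 CPM with DMSO and 1450 ± 53.3 CPM with NECA (SD, n = 2 each), a log2 fold change of 0.17 (SE 0.04, 95% interval 0.07 to 0.26, edgeR adjusted p = 0.0918). The interval, which is not adjusted for the 13083 genes tested, allows an increase of the mean of 4.93% to 20.1%. The neutrophil marker sum stood 0.12 and 0.13 above its DMSO mean on the log2 scale in NECA replicates 1 and 2, where Vsir stood 0.20 and 0.13 above its own, and the part of those cells in the Vsir values was not tested. Vsir (ENSMUSG00000020101, chromosome 10, 60346851 to 60372684, GRCm38) lies inside Cdh23 on the other strand, shares 0 exon bases with it, and Cdh23 itself had 520 to 630 counts against 21861 to 27095 for Vsir. Vsir did not pass with all 4 libraries, and whether it passed without 1 of them depended on which was left out. A fit without 1 library leaves its group with a single library, which is assumed to vary like those of the other group, since the other group alone gives the spread. Under that assumption, without NECA replicate 2 Vsir passed (0.20, where 0.871% of all genes were called higher), and without each other library it did not. The fits without a NECA library took p from a normal distribution, which gives smaller p-values than the t distribution of the main fit. Those without a DMSO library also used a t distribution. These fits are thus not comparable, and the pass of Vsir is not separate support.

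Cd274 encodes PD-L1, the ligand of the T cell inhibitory receptor PD-1. It had 108 and 57 counts with DMSO and 51 and 34 with NECA, or 5.64 and 3.03 against 2.80 and 2.20 CPM. The DMSO replicate 1 value was the highest, NECA replicate 1 lay just below DMSO replicate 2, and NECA replicate 2 was the lowest. Such a position, below both DMSO libraries, was held by 1 of the 6 tested members and by 24.3% of all genes tested. The mean was 4.34 ± 1.85 CPM with DMSO and 2.50 ± 0.43 CPM with NECA (SD, n = 2 each), a log2 fold change of -0.79 (SE 0.35, 95% interval -1.56 to -0.02, edgeR adjusted p = 0.308). Without DMSO replicate 1 the value was -0.27 (adjusted p = 0.815). The summed markers of each cell type other than neutrophils given above were also lower in both NECA libraries than in both DMSO libraries. Like Cd274, the monocyte and macrophage, dendritic cell and erythroid sums were highest in DMSO replicate 1 and lowest in NECA replicate 2. The B cell, T and NK cell, and basophil, mast cell and eosinophil sums were highest in DMSO replicate 2. Their part in the Cd274 values was not tested. Cd274 (ENSMUSG00000016496, chromosome 19, 29367455 to 29388095) shares 511 exon bases with an annotated antisense gene, so its counts are uncertain without strand. Per length, Vsir exceeded Cd274 by 164-fold and 311-fold in the DMSO libraries and by 384-fold and 464-fold in the NECA libraries. These ratios rest on 34 to 108 counts of Cd274 and follow its spread.

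**Figure D2:**
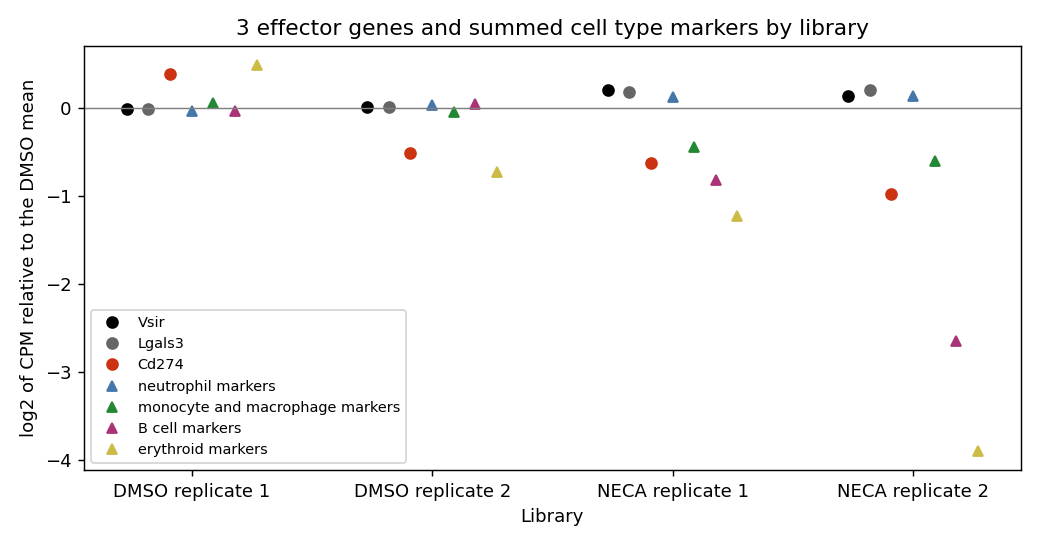
Level of Vsir, Lgals3 and Cd274 (circles) and summed level of 4 cell type marker lists (triangles) in each library, as log2 of CPM relative to the DMSO mean. Vsir and Lgals3 lie at 0.13 to 0.20 in the NECA libraries, Cd274 at -0.63 and -0.98, and the erythroid sum at -1.23 and -3.90.

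Of the other genes of inhibitory ligands and their receptors, 14 of 22 were tested, 1 rose, 1 fell and 12 did not pass, with a median log2 fold change of 0.09 against -0.01 for all genes tested. Selplg, which encodes P-selectin glycoprotein ligand 1, an adhesion molecule that also binds VISTA, rose from 236 and 257 CPM to 298 and 301 CPM (0.28, SE 0.06, edgeR adjusted p = 0.0427). It did not pass when either DMSO library was left out (adjusted p = 0.198 and 0.0627 without replicates 1 and 2), or with library size alone as the scale (adjusted p = 0.0984). Btla, an inhibitory receptor best known from lymphocytes, fell from 9.04 and 7.91 CPM to 3.24 and 0.711 CPM (-2.06, SE 0.43, edgeR adjusted p = 0.0423), while the B cell marker sum stood at 103 and 28.9 CPM in the same NECA libraries. Its value moved to -3.56 when NECA replicate 1 was left out and to -1.39 when NECA replicate 2 was, and it did not pass without either DMSO library (adjusted p = 0.182 and 0.131) or with DESeq2 (adjusted p = 0.347). Pdcd1lg2, the other PD-1 ligand, had 17 counts in all and was not tested, and Vtcn1 had none.

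Galectins are sugar-binding proteins, and galectin-3 and galectin-9 are known to inhibit T cells. Lgals3 had 443 and 449 CPM under DMSO against 503 and 511 CPM under NECA. The groups did not overlap, and their means were 446 ± 4.13 and 507 ± 5.77 CPM (SD, n = 2 each). The log2 fold change was 0.19 (SE 0.05, 95% interval 0.08 to 0.29, edgeR adjusted p = 0.089). It lay between 0.17 and 0.20 when each library was left out. Lgals3 was past the threshold in 1 of those 4 fits (without NECA replicate 1, where 1.74% of all genes were called higher). The fits without a NECA library took p from a normal distribution, and those without a DMSO library from a t distribution, as did the main fit. The 4 fits are thus not comparable, and this pass is not separate support. Lgals3 stood 0.17 and 0.20 above its DMSO mean in the NECA libraries, beside the 0.12 and 0.13 of the neutrophil marker sum, whose part in it was not tested. Lgals3 is ENSMUSG00000050335, on chromosome 14 from 47367751 to 47386160, with no overlapping annotated gene. Lgals3 had the smallest p of the tested members, and the 3 genes whose centred log2 CPM profile over the 4 libraries was nearest to its own (Euclidean distance, genes of at least 5 CPM) were Pcgf1 (distance 0.01), Atp6v1g1 (0.02) and Rnpep (0.02), none of them called (adjusted p = 0.706, 0.136 and 0.144).

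Lgals9 had 134 and 145 CPM under DMSO against 136 and 141 CPM under NECA. The NECA libraries lay between the DMSO libraries. Its log2 fold change was -0.01 (SE 0.07, 95% interval -0.15 to 0.14, edgeR adjusted p = 0.979), and the interval allows changes of the mean from -9.89% to 9.96%. Lgals9 is ENSMUSG00000001123, on chromosome 11 from 78962974 to 78984946, the neighbour of Nos2, which ends at 78960254. Of 9 further galectins and partners 6 were tested, 0 rose and 1 fell. The one that fell was Lgals3bp, a secreted protein that binds galectin-3, with 12.3 and 10.1 CPM against 3.79 and 3.36 CPM (-1.64, SE 0.22, edgeR adjusted p = 0.00409), beside monocyte and macrophage markers of which 16 of 22 fell and 0 rose, with a median of -1.49. The part of those cells in its fall was not tested. Without DMSO replicate 1 its adjusted p was 0.0592. The median of the 6 was 0.01.

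The 2 arginases split arginine into ornithine and urea. Arg1, the cytosolic isoform, had 3 and 4 counts with DMSO and 3 and 2 with NECA, or at most 0.212 CPM. Arg2, the mitochondrial isoform, had 485 and 557 counts with DMSO and 466 and 541 with NECA. On the CPM scale Arg2 stood at 25.3 and 29.6 against 25.6 and 35.0, and the groups overlapped. Its log2 fold change was 0.14 (SE 0.14, 95% interval -0.18 to 0.45, edgeR adjusted p = 0.725), and it moved to -0.10 when NECA replicate 2 was left out and to 0.35 when NECA replicate 1 was. Per length, Arg2 exceeded Arg1 by 252-fold, 217-fold, 242-fold and 422-fold in DMSO replicates 1 and 2 and NECA replicates 1 and 2, ratios that rest on 2 to 4 counts of Arg1. Arg1 (ENSMUSG00000019987) lies on chromosome 10 from 24915221 to 24927484, and Arg2 (ENSMUSG00000021125) on chromosome 12 from 79130777 to 79156301. Arg2 shares 285 exon bases with Vti1b on the other strand, which had 628 to 743 counts, so its counts are uncertain without strand.

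Of 15 other genes of arginine uptake and use, 11 were tested, 0 were called in either direction and the median log2 fold change was -0.29. The most abundant per length were Azin1, an activator of polyamine synthesis (23.2 FPKM on average, 0.08, edgeR adjusted p = 0.65), and Slc3a2, the shared chain of several amino acid transporters (14.8 FPKM, -0.21, edgeR adjusted p = 0.314). Among those chosen after their values were seen, Odc1, which turns ornithine into putrescine, had 17.7 and 14.8 CPM against 9.94 and 10.1 CPM (adjusted p = 0.0652). Ass1, which takes part in rebuilding arginine from citrulline, had 1.10 and 1.38 CPM against 0.220 and 0.258 CPM (adjusted p = 0.107).

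Nos2, the inducible nitric oxide synthase, had 2 and 0 counts with DMSO and 1 and 2 with NECA. Nos2 (ENSMUSG00000020826, chromosome 11, 78920787 to 78960254) thus had counts in 3 of the 4 libraries and stayed below 3 counts, the limit that a count of 0 allows, which is 0.157 to 0.194 CPM. The other synthases had 2 counts over all libraries (Nos1) and none (Nos3). Genes for the tetrahydrobiopterin cofactor of these enzymes and for the NADPH oxidase, which makes superoxide, were measured in number. Of 12 such genes, 11 were tested and 0 were called, with a median of 0.09. The oxidase subunits with the highest FPKM were Cyba, with 852 and 909 CPM against 916 and 872 CPM (0.02, edgeR adjusted p = 0.894), and Rac2, the small GTPase of the complex, with 2136 and 2161 against 2316 and 2279 CPM (0.10, edgeR adjusted p = 0.254).

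Il10, the anti-inflammatory cytokine, had 1 count in DMSO replicate 1 and 0 in the other 3 libraries, which allow up to 0.159 CPM in DMSO replicate 2 and 0.165 and 0.194 CPM in NECA replicates 1 and 2. Il10 is ENSMUSG00000016529, on chromosome 1 from 131019845 to 131024974. Genes that receive or regulate the cytokine were present. Of 10 such genes 8 were tested, 0 rose and 1 fell, with a median of -0.07. Maf, a transcription factor of macrophages and lymphocytes that is known to drive Il10, fell from 11.8 and 11.5 CPM to 3.57 and 3.10 CPM (-1.79, SE 0.21, edgeR adjusted p = 0.00199). The monocyte and macrophage markers had a median of -1.49 in the same fit, and their part in the Maf values was not tested. Stat3, which carries the IL-10 signal into the nucleus, was chosen after its values were seen and had 350 and 363 against 402 and 410 CPM (0.19, edgeR adjusted p = 0.0979).

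Tgfb1, the form of TGF-beta made by most immune cells, had 134 and 123 CPM under DMSO against 139 and 115 CPM under NECA. The 2 NECA libraries lay on either side of the DMSO libraries. The log2 fold change was -0.02 (SE 0.09, 95% interval -0.21 to 0.17, edgeR adjusted p = 0.95). Tgfb1 is ENSMUSG00000002603, on chromosome 7 from 25687002 to 25705077, with no overlapping annotated gene. Tgfb2 had no counts and Tgfb3 had 2. Of 19 other genes of the pathway 11 were tested, 0 rose and 1 fell, with a median of 0.01. Thbs1, a secreted thrombospondin that can activate latent TGF-beta, fell from 4548 and 4904 CPM to 3918 and 3472 CPM (-0.36, SE 0.06, edgeR adjusted p = 0.01), and did not pass when DMSO replicate 2 was left out (adjusted p = 0.0696). The receptors Tgfbr1 (0.04) and Tgfbr2 (0.09), chosen after their values were seen, did not pass.

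**Figure D3:**
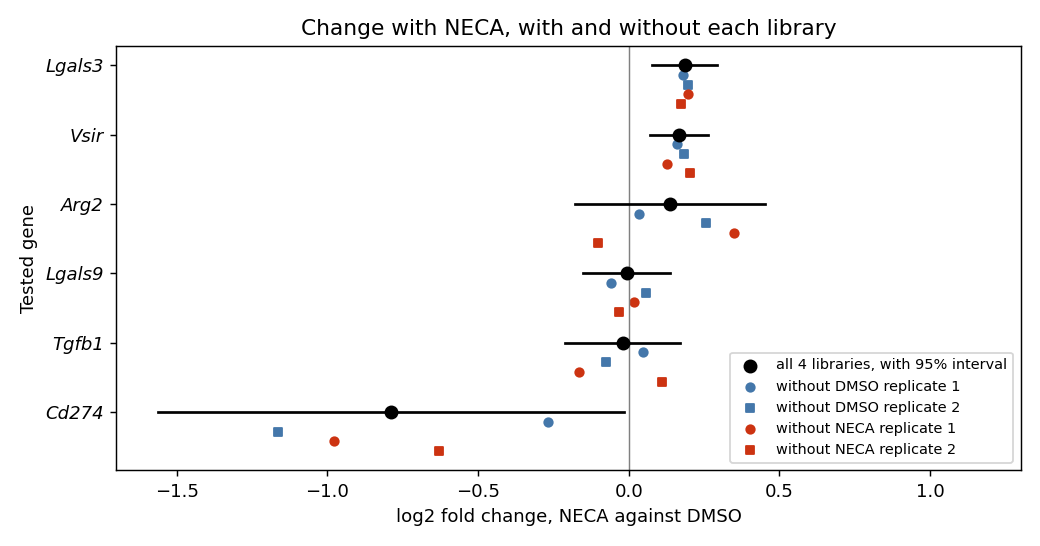
Log2 fold change of NECA against DMSO for the 6 tested genes, with the 95% interval over all 4 libraries (black) and the value without each library (coloured symbols). Lgals3 and Vsir lie above 0 in all 5 fits, Cd274 lies below 0 in all 5, and Arg2, Lgals9 and Tgfb1 lie on both sides.

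Slc27a2 encodes the fatty acid transport protein FATP2, known for supplying arachidonic acid for prostaglandin E2 in PMN-MDSC. It had 10 and 4 counts with DMSO and 2 and 2 with NECA. The DMSO replicate 1 value held most of the counts. In a fit with no filter on low counts the log2 fold change of Slc27a2 was -1.57 (edgeR adjusted p = 0.828). Slc27a2 (ENSMUSG00000027359, chromosome 2, 126552407 to 126588243) shares 419 exon bases with the noncoding gene Gm26697 on the other strand, which had 0, 0, 0 and 2 counts. Of 20 genes of fatty acid transport and prostaglandin E2 synthesis 17 were tested, 1 rose and 0 fell, with a median of 0.05. The one that rose was Cpt1a, which passes fatty acids into mitochondria, with 122 and 138 CPM against 182 and 201 CPM (0.56, SE 0.08, edgeR adjusted p = 0.00409), and an adjusted p of 0.0512 without DMSO replicate 1. Slc27a4, another member of the same transporter family, was chosen after its values were seen and had the highest level of the family tested (138 FPKM on average), at 561 and 583 against 656 and 635 CPM (edgeR adjusted p = 0.107). Ptgs2, the inducible cyclooxygenase that starts prostaglandin synthesis, had 1.46 and 3.35 against 1.92 and 1.16 CPM, and Ptges, the last enzyme of the route, 50.5 and 46.2 against 51.0 and 49.0 CPM. Both were chosen after their values were seen, and neither passed the test. Of the 17 tested, 9 lay above 0 and 8 below. The largest shift, also named after the values were seen, was that of Hpgd. It had 12.0 and 13.4 against 7.03 and 1.87 CPM (-1.48, edgeR adjusted p = 0.0879).

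Of 23 transcription factors known to regulate suppressive genes, 21 were tested, 0 rose and 1 fell, with a median of -0.02. Irf8, a factor of monocyte and dendritic cell development that restrains the growth of granulocytic suppressor cells, fell from 15.8 and 15.0 CPM to 8.35 and 3.62 CPM (-1.34, SE 0.28, edgeR adjusted p = 0.0423). B cells also express Irf8, and the B cell marker sum went from 177 and 186 to 103 and 28.9 CPM, with the same order of the NECA libraries, while the monocyte and macrophage markers had a median of -1.49. The part of those cells in the Irf8 values was not tested. It did not pass when either DMSO library was left out (adjusted p = 0.18 and 0.139 without replicates 1 and 2), and its value moved to -2.09 when NECA replicate 1 was left out and to -0.88 when NECA replicate 2 was. Cebpb, a factor known to be needed for suppressor cell function, had 149 and 185 against 140 and 130 CPM (edgeR adjusted p = 0.12) and Hif1a, the hypoxia factor, 29.6 and 32.8 against 31.3 and 30.2 CPM (edgeR adjusted p = 0.957). Both were chosen after their values were seen.

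**Figure D4:**
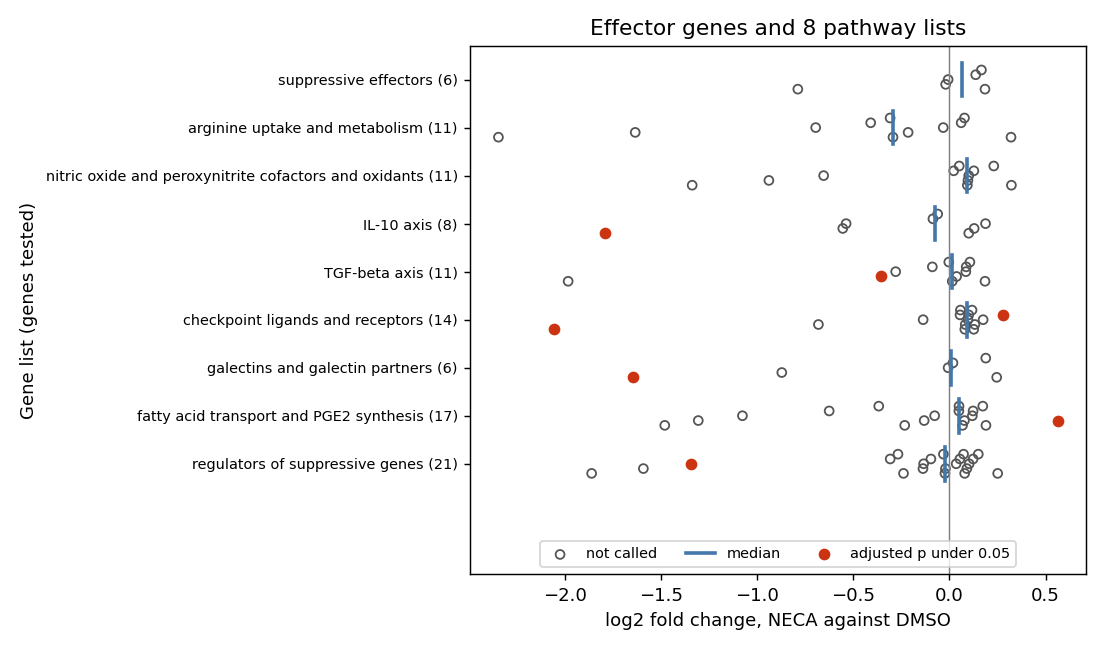
Log2 fold change of NECA against DMSO for each tested gene of the effector genes and 8 pathway lists, with called genes filled in red and the median of a list as a blue bar. Medians lie between -0.29 and 0.09, and 2 genes above 0 and 5 below 0 are called, beside 0.352% and 0.978% of all genes tested.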

How the data were processed

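Per the labels' protocols, cDNA was made from total RNA with SMARTer chemistry, amplified, cut with a fragmentase and sequenced in pairs. The submitters' processing notes name HISAT, StringTie and edgeR and 2 names of the mouse build, mm10 and GRCm38, without versions. The counting program, annotation and strand setting were not given in the sources used here. Per the file headers, each deposited table holds raw read counts and FPKM values per gene, both made by the authors. Counts were tested as deposited with edgeR 4.0.16 (R 4.3.3): filterByExpr (minimum count 10), TMM, glmQLFit and glmQLFTest with no block, 2 residual degrees of freedom, and Benjamini-Hochberg adjustment over 13083 genes (threshold 0.05). The SE is the log2 fold change over the square root of F. The 95% intervals use a t distribution with 11.8 degrees of freedom, of which 2 are residual and the rest are borrowed from other genes. With the 2 residual degrees of freedom alone they would be wider. The intervals are for each gene alone, with no adjustment over genes. DESeq2 1.42.0 and limma 3.58.1, on log2(FPKM + 0.1), were alternatives. Positions are those of GENCODE M21 (GRCm38), and shared transcript stretches were sought with BLAST 2.17.0. With a library left out, the genes of the full fit were kept, a setting chosen after a first run that filtered anew had been seen; the members' calls were the same in both. Fits were tested on simulated data, where the share of false calls was above the threshold in every run with gene-wise dispersions and in some with trended ones. Replicates of a group were not copies (chi-square per degree of freedom 6.36 for DMSO, 5.01 for NECA).

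The members and gene lists were chosen with earlier results of these data known. Beside all members, the rule named each called gene of a pathway list or else its 2 most abundant per length, the 2 most abundant genes of each marker list, and the 3 genes nearest to the member with the smallest p.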

Additional observations from a re-analysis of the deposited data

How the results depend on the processing

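With 2 libraries a group, counts of calls moved with most choices. Over all genes, 46 were higher and 128 lower. The counts were 21 and 217 with library size alone as the scale (8.82% of calls higher against 26.4%, median gene shifted by -0.07), 285 and 590 with no filter on low counts, and 1 and 0 with limma on log2 FPKM; DESeq2 gave 150 higher. They ran from 8 to 227 and from 45 to 594 when each library was left out. Of the members, 2 were higher with DESeq2 and 2 with no filter. With no filter Vsir stood at 0.16 and Lgals3 at 0.18 (adjusted p = 0.00569 and 0.0206), and with DESeq2 at 0.17 and 0.19. The range on leaving out each library was 0.13 to 0.20 for Vsir, 0.17 to 0.20 for Lgals3, -0.10 to 0.35 for Arg2, -0.17 to 0.11 for Tgfb1, -0.058 to 0.056 for Lgals9 and -1.16 to -0.27 for Cd274. Lgals9 changed sign with DESeq2 (0.00091) and limma (0.0021). Of the pathway genes, 2 were higher and 5 lower, beside 0.352% and 0.978% of all genes tested. The higher count was 1 with library size alone, 5 with DESeq2, 6 with no filter, 1 with at least 1 CPM in 2 libraries and 0 with limma. The lower count was 3 with DESeq2 size factors, 8 with library size alone, 16 with no filter, 3 with at least 1 CPM in 2 libraries and 0 with limma. On leaving out each library they ran from 0 to 4 and from 2 to 15. Cyba changed sign with library size alone (-0.050) and ran from -0.017 to 0.073 when each library was left out. Btla and Irf8 also missed the threshold with DESeq2 size factors (adjusted p = 0.0511 each). With the replicate number as a block, 123 genes were higher and 298 lower and 9 pathway genes lower. No member was called (edgeR adjusted p = 0.0613 for Vsir and 0.0628 for Lgals3). The differences between replicates 1 and 2 were nearly uncorrelated between the groups (r = 0.05 across 8560 genes). That value cannot show whether same-numbered libraries share an animal, culture or batch, which is not stated. The causes of these shifts were not tested.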
